A study of Mus musculus with 6 samples.

Results

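The genes described are the chemokine ligands, 38 protein-coding mouse genes whose symbols begin with Ccl or Cxcl and a digit, together with Cx3cl1 and Xcl1. They were chosen by symbol and gene type among 49164 gene entries with counts. No measured value entered this rule, but earlier results of these data were known when it was applied. Another 3 entries with such symbols, Cxcl11 and a pair of Ccl19 pseudogenes, are not annotated as protein-coding in the table and were left out. RNA came from the nasal conchae, labelled olfactory epithelium, of 6 c57Bl6/ICR crossbred mice aged 3 months and all labelled male, with 1 library per mouse.

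The 3 control mice are labelled WT, untreated, with an olfactory bulb of normal size. The 3 sFlt1 mice came from crossing a camk2a-tTa line with a tet-sFlt1 line, in which the Camk2a promoter, active in forebrain neurons, drives a tetracycline-repressed transgene for soluble Flt1. Soluble Flt1 is a decoy receptor that binds VEGF. Tetracycline was replaced by water at embryonic day 13.5, and MRI at 2 months put the bulb at 28%, 29% and 14% of normal in sFlt1 replicates 1, 2 and 3. Its question is what changes in the nose when the bulb, to which the sensory neurons project, has shrunk.

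Chemokines are small secreted proteins that guide the migration of cells, mostly leukocytes, through G protein-coupled receptors. They are named for the spacing of conserved cysteines near the amino end (CC, CXC, CX3C and XC). Inflammatory members are switched on in many tissues through NF-kB and interferon signalling, while homeostatic members are made steadily by stroma, epithelia or neurons. In the olfactory mucosa, macrophages and other leukocytes clear dying sensory neurons, and basal stem cells replace them.

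Libraries held 28832424 to 46444862 counts, and values below are CPM, the count of a gene scaled to the library total with TMM factors, unless they are called counts. Markers of the labelled tissue were present, with Omp, the olfactory marker protein, at 466 to 4056 CPM and estimates below 0 for all 10 mature sensory neuron markers (median log2 fold change -1.16). Of these 10, edgeR passed 0 and DESeq2 1, against 0.0% and 2.19% of all genes. Flt1, of which counts do not separate transgene and endogenous reads, was at 3.71, 2.81 and 11.1 CPM in control replicates 1, 2 and 3 and 6.42, 2.36 and 9.79 CPM in sFlt1 replicates 1, 2 and 3. In 2 libraries the counts go against the male label. Xist, the RNA of the inactive X chromosome, was at 710 CPM in control replicate 1 and 524 CPM in sFlt1 replicate 3, against at most 0.371 CPM in the other 4. Control replicate 3 stood apart in brain neuron markers, whose summed level was 2835 CPM there, 684 to 687 CPM in the other controls and 235 to 378 CPM in the sFlt1 mice. In bulk tissue, more cells of a type and more RNA per cell cannot be told apart.

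No chemokine ligand passed the test between the groups. Estimates of 18 of the 24 tested ligands were above 0, that is higher in sFlt1 mice, and their median was 0.53 on the log2 scale. Over all 19899 tested genes 51.3% of estimates were above 0 and the median was 0.02. By edgeR's quasi-likelihood test with Benjamini-Hochberg adjustment over all genes, 0 ligands were under the threshold of 0.05, as were 0.0% of all genes. At an unadjusted p under 0.05 there were 2 ligands, Cxcl17 and Ccl8, both higher in sFlt1 mice, where 4.84% of all genes were higher at that level and 6.24% lower. The smallest adjusted p of a ligand was 0.44, and of any gene 0.42. DESeq2 also passed 0 ligands, with 2.19% of all genes passing, and its smallest adjusted p of a ligand was 0.17. It gave 3 ligands an unadjusted p under 0.05, all higher (3.84% of all genes), and limma voom passed 0, with 2 under it. The groups did not overlap for 1 tested ligand that was higher, Ccl8 (8.76% of all genes), and 1 that was lower, Ccl27a (9.51% of all genes). No ligand passed without both libraries that held Xist reads, where the median was 0.75, nor without both control replicate 3 and sFlt1 replicate 3, where it was 0.52.

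**Figure D1:**
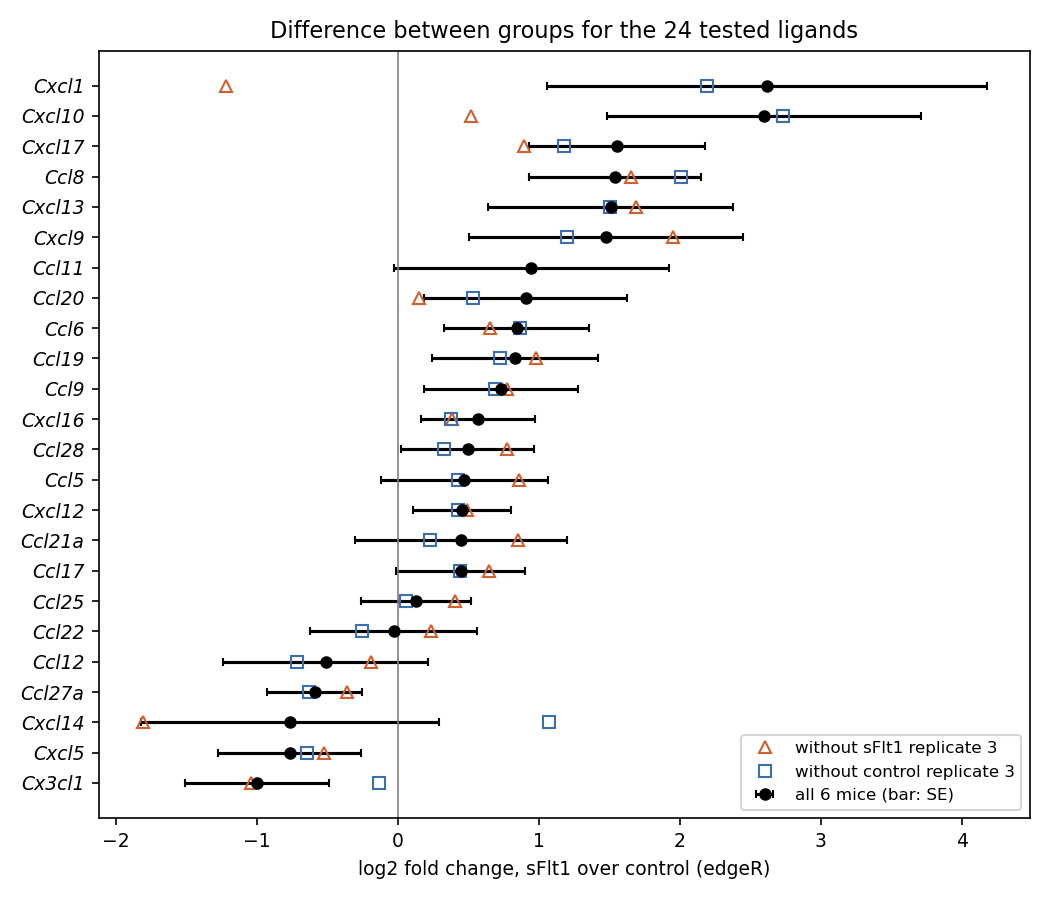
Log2 fold change (sFlt1 over control, edgeR) of the 24 tested ligands, with its SE as a bar and open symbols for the estimate without sFlt1 replicate 3 or without control replicate 3. Estimates run from -1.0 for Cx3cl1 to 2.62 for Cxcl1, and those of Cxcl1, Cxcl10, Cxcl14 and Cx3cl1 move most when the named mouse is left out.

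Detection differed widely among the 38 ligands. At least 1 read was counted for 35 of them, and 29 had reads in all 6 mice. Ccl21b, Ccl26 and Ccl27b had 0 counts in every library, and a count of 0 allows up to 3 counts, or 0.0655 to 0.107 CPM per library, for counting error only. The filter on low counts left 24 for testing and removed 14, among them Ccl2, Ccl7 and Cxcl2, which had most of their reads in 1 library. A filter of this kind keeps a gene more readily when several mice of a group express it, so the tested ligands do not stand for all 38.

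Compared per length, Cxcl17 had the highest mean over the 6 mice, 31.6 CPM per kb of exon, above 93.2% of tested genes. Cx3cl1 followed at 14.5 CPM per kb, above 83.0% of tested genes. By group the order turned: in controls the means were 16.0 ± 10.1 CPM per kb for Cxcl17 and 19.3 ± 15.2 for Cx3cl1 (SD, n = 3), which overlap, and in sFlt1 mice 47.2 ± 30.3 and 9.66 ± 0.577 (SD, n = 3). Each mean rests on a mouse that stands apart, sFlt1 replicate 3 at 81.8 CPM per kb of Cxcl17 and control replicate 3 at 36.8 CPM per kb of Cx3cl1. Ccl28 at 5.63, Cxcl12 at 5.21, Cxcl14 at 4.87, Ccl27a at 4.82 and Ccl21a at 4.47 CPM per kb came next, and their ranges over mice overlap. Means of the inducible ligands were 0.742 CPM per kb for Cxcl1, 0.595 for Ccl2 and 0.508 for Cxcl10. In sFlt1 replicate 3 alone, Cxcl1 was at 3.64 CPM per kb, beside 3.79 for Ccl28 and 2.51 for Ccl27a, and in the other 5 mice it was at 0.364 CPM per kb or less.

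**Figure D2:**
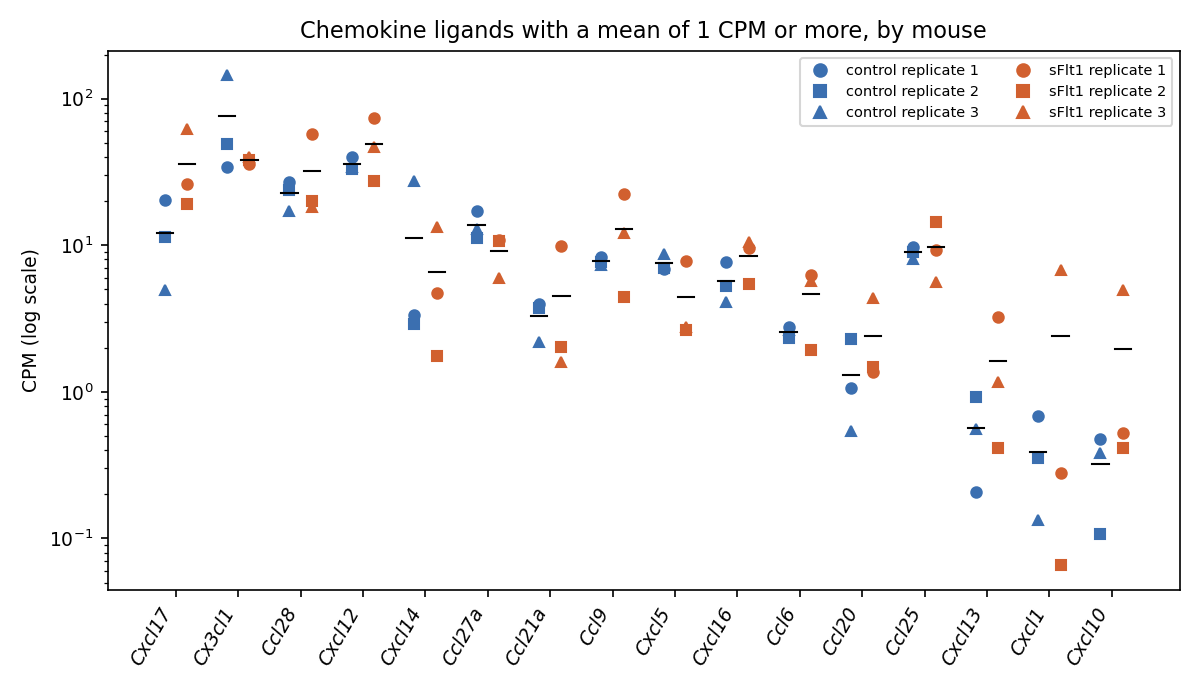
CPM per mouse on a log axis for the 16 ligands with a mean of 1 CPM or more, ordered by mean CPM per kb, with a black line at each group mean. Ranges of the groups overlap for all of them but Ccl27a, and for Cxcl1 and Cxcl10 the mean of the sFlt1 group is set by replicate 3, at 6.83 and 4.96 CPM.

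The neutrophil-attracting CXC ligands, which act on Cxcr2, differed in which mice held their reads. Cxcl1 stood at 0.682, 0.356 and 0.134 CPM in control replicates 1, 2 and 3 and at 0.281, 0.0655 and 6.83 CPM in sFlt1 replicates 1, 2 and 3. Those levels rest on 23, 10 and 6 counts in controls and 8, 3 and 297 counts in sFlt1 mice. Replicate 3 of the sFlt1 group was 10 times the next library, and the other sFlt1 mice lay within or below the controls. The log2 fold change of 2.62 (SE 1.56, adjusted p = 0.56 by edgeR) became -1.22 without that mouse, and DESeq2 gave no p-value for this gene. Cxcl2 had 7, 0 and 0 counts in controls and 1, 1 and 39 counts in sFlt1 replicates 1, 2 and 3. Cxcl3 had at most 3 counts in any library. Cxcl5, an epithelial member of the same subfamily, went the other way, at 6.85, 6.95 and 8.76 CPM in the controls, against 7.86, 2.64 and 2.78 CPM in the sFlt1 mice. It was low in sFlt1 replicates 2 and 3 and at the control level in replicate 1, and the log2 fold change of -0.77 (SE 0.51, adjusted p = 0.59 by edgeR) was -1.45 without replicate 1. Cxcl15, known from mouse lung, had 4 to 8 counts per library.

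Promoters are shown of Cxcl1, Cxcl2 and Cxcl10, whose reads were mainly in sFlt1 replicate 3, and of Cxcl3, of the same subfamily. Their windows hold the same 10-base pattern, as does that of Ccl1, which is not shown. The pattern is a kappaB form, the letters GGGA and TTCC with any 2 bases between them, to which NF-kB factors are known to bind. The sequences are the 250 bases before the annotated start, from RefSeq on GRCm38.p6, a different build from the GRCm39 of the counts, and capitals mark the motif matches. Of the 38 ligands, 28 matched a promoter window there, and Ccl2 and Ccl7 did not.
Cxcl1, chr5:90890995-90891244, plus strand: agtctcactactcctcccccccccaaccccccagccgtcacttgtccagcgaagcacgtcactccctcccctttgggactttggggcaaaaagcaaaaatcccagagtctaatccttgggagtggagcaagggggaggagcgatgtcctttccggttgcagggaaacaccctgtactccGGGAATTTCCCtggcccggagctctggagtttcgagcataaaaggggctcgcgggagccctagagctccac
Cxcl2, chr5:90903649-90903898, plus strand: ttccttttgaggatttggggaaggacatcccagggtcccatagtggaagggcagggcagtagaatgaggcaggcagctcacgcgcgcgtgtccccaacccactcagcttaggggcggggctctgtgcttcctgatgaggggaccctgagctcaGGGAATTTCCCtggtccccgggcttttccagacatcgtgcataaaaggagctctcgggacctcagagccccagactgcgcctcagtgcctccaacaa
Cxcl3, chr5:90785851-90786100, plus strand: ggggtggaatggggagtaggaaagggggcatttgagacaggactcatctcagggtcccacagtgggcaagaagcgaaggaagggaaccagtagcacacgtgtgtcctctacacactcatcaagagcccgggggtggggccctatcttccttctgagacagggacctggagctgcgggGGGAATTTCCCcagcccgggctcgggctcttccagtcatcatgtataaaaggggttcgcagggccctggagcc
Cxcl10, chr5:92348890-92349139, minus strand: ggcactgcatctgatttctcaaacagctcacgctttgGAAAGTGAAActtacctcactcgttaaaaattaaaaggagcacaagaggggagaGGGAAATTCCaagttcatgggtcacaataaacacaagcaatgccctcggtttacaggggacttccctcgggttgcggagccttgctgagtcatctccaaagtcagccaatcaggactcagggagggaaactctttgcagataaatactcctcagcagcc
The search covered both strands of windows from 250 bases before to 50 bases after the start. The form was present in windows of 5 ligands, Ccl1, Cxcl1, Cxcl2, Cxcl3 and Cxcl10, and in windows of 1.63% of the 27025 genes listed. In Cxcl1, Cxcl2 and Cxcl3 the same letters were matched on both strands with an overlap of 9 bases, and the forward match starts 71, 97 and 73 bases before the start site. In Cxcl10 the form starts 159 bases before it. The capitals nearer the 5′ end of the Cxcl10 window mark an interferon element form, the letters TTTC and TTTC with any 2 bases between them, read on the other strand, which also occurs in windows of Ccl19 and Cxcl14 and of 3.99% of genes. A match is a description of the letters, and neither binding nor its effect was measured. Ccl1 and Cxcl3 hold the kappaB form with at most 3 counts in any library.

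The interferon-inducible CXC ligands, which attract T and NK cells through Cxcr3, were highest in different mice. Cxcl10 was at 0.475, 0.107 and 0.380 CPM in the controls, against 0.526, 0.415 and 4.96 CPM in sFlt1 replicates 1, 2 and 3. Replicate 3 was 9.43 times the next library, on 216 counts, and the other sFlt1 mice overlapped the controls. Its log2 fold change was 2.60 (SE 1.11, adjusted p = 0.46 by edgeR) and 0.52 without that mouse. Cxcl9, its neighbour on chromosome 5, was at 1.04, 0.142 and 0.291 CPM in the controls, against 1.19, 2.62 and 0.299 CPM in the sFlt1 mice. It was highest in sFlt1 replicate 2 and low in the mouse where Cxcl10 was high, and the log2 fold change of 1.48 (SE 0.97, adjusted p = 0.59 by edgeR) was 0.58 without sFlt1 replicate 2 and 2.67 without control replicate 1. Of 10 interferon-stimulated genes, 4 had higher and 6 lower estimates in sFlt1 mice and 0 passed by edgeR or DESeq2. Their summed level was 97.5 to 113 CPM in the controls, against 88.8, 77.5 and 75.1 CPM in sFlt1 replicates 1, 2 and 3. Without Ifit1 the sums overlapped, at 61.4 to 66.9 against 55.3 to 73.8 CPM. In sFlt1 replicate 3, where Cxcl10 was high, Irf1 at 23.1 CPM, Gbp2 at 9.54 CPM and Mx1 at 7.77 CPM were at their highest and Ifit1 at 7.84 CPM at its lowest. Cxcl10 lies opposite Art3 and Ccl27a opposite Il11ra1, so without knowledge of strand their reads could be confused with those of the partner. The same holds for Ccl6, Cxcl16, Cxcl17, Ccl19, Ccl21a, Ccl21d and Xcl1, which also lie opposite genes with reads. Over all libraries Ccl6 had 792 counts and its partner 353, and Xcl1 had 12 and its partner 41.

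Inflammatory CC ligands, which recruit monocytes, eosinophils and T cells, had 6 of 8 tested estimates above 0, with a median of 0.60, and differed in which mouse was high. Ccl2 and Ccl7, neighbouring genes whose products attract monocytes through Ccr2, were high in sFlt1 replicate 3. Ccl2 had 14, 6 and 8 counts in controls and 8, 10 and 120 counts in sFlt1 mice, or 2.76 CPM in replicate 3 against at most 0.415 CPM elsewhere. Ccl7 had 7, 2 and 2 counts in controls and 5, 3 and 46 counts in sFlt1 mice. Fitted with no filter on low counts, their log2 fold changes were 2.01 (SE 0.99) and 2.00 (SE 1.08), with edgeR adjusted p-values of 0.61 and 0.64. Ccl12, a mouse ligand of the same receptor between them and Ccl8 on chromosome 11, did not share this, with 41, 7 and 20 counts in controls and 11, 33 and 10 counts in sFlt1 mice. Ccl3, a ligand of Ccr1, had 22 counts in sFlt1 replicate 3 and at most 7 elsewhere, while its neighbour Ccl4 had 0 counts in that mouse and 1 to 7 elsewhere.

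Other inflammatory CC ligands were highest in sFlt1 replicate 1. Ccl9, a mouse ligand of Ccr1 made by myeloid cells, was at 8.28, 7.66 and 7.33 CPM in the controls, against 22.2, 4.41 and 12.1 CPM in the sFlt1 mice. Ccl6, its neighbour and also a myeloid product, was at 2.76, 2.32 and 2.66 CPM in the controls, against 6.25, 1.92 and 5.72 CPM in the sFlt1 mice. Both were above every control in sFlt1 replicates 1 and 3 and below them all in replicate 2. Their log2 fold changes were 0.73 (SE 0.55) and 0.84 (SE 0.51), with edgeR adjusted p-values of 0.63 and 0.57. Without sFlt1 replicate 1 the estimate for Ccl9 was 0.11.

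Ccl8, in mice a ligand of Ccr8, was the tested ligand whose groups were separate with sFlt1 mice higher. It stood at 0.326, 0.178 and 0.537 CPM in the controls, against 1.65, 0.611 and 0.850 CPM in sFlt1 replicates 1, 2 and 3, on 5 to 47 counts. Replicate 2 of the sFlt1 group lay close to the highest control. The log2 fold change was 1.54 (SE 0.61, adjusted p = 0.44 by edgeR). It was 1.08 without sFlt1 replicate 1, its highest mouse, and 2.12 without both control replicate 3 and sFlt1 replicate 3. The remaining members of this role had estimates no larger than their SE. They were 0.47 (SE 0.59) for Ccl5, which attracts T cells, 0.45 (SE 0.46) and -0.03 (SE 0.59) for the Ccr4 ligands Ccl17 and Ccl22, and 0.95 (SE 0.98) for the eotaxin Ccl11. Ccl24, another eotaxin, had 1 to 3 counts per library and Ccl1 at most 1.

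Among the other CXC ligands, 4 of 5 estimates were above 0. Cxcl17, a mucosal chemokine of airway epithelia (ENSMUSG00000060188, chromosome 7, 25099478 to 25112311, GRCm39), was at 20.3, 11.4 and 4.94 CPM in control replicates 1, 2 and 3 and at 26.2, 19.2 and 62.2 CPM in sFlt1 replicates 1, 2 and 3. The groups overlapped, since sFlt1 replicate 2 lay below control replicate 1, and sFlt1 replicate 3 was 2.37 times the next library. Group means were 12.2 ± 7.71 and 35.9 ± 23.1 CPM (SD, n = 3 each), a log2 fold change of 1.56 (SE 0.62, adjusted p = 0.44 by edgeR). It was 0.90 without sFlt1 replicate 3 and 0.52 without both that mouse and control replicate 3. All 9 gland and secretory markers had higher estimates in sFlt1 mice, with a median of 0.78, and their summed level was 4063 to 8866 CPM in the controls, against 13859 to 24948 CPM in the sFlt1 mice, highest in the same mouse as Cxcl17. Bpifa1, an abundant secreted airway protein, made up most of that sum, at 19602 CPM in sFlt1 replicate 3. Without it the sums were 3143, 3498 and 2013 CPM in the controls, against 8444, 2472 and 5346 CPM in the sFlt1 mice, so the groups overlapped, and 6 of the 9 markers were highest in sFlt1 replicate 1. DESeq2 passed 2 of these markers, against 2.19% of all genes, and edgeR 0. By edgeR 4 were higher at an unadjusted p under 0.05, against 4.84% of all genes. The part of glandular tissue in the level of Cxcl17 was not tested.

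Cxcl12, a stromal ligand of Cxcr4 and of the scavenging receptor Ackr3, was at 40.3, 33.1 and 34.3 CPM in the controls, against 73.6, 27.5 and 46.8 CPM in the sFlt1 mice. It was highest in sFlt1 replicate 1 and lowest in sFlt1 replicate 2, and the log2 fold change of 0.46 (SE 0.35, adjusted p = 0.64 by edgeR) was 0.068 without sFlt1 replicate 1. Cxcl16, a membrane-tethered ligand of Cxcr6, was at 7.74, 5.31 and 4.09 CPM in the controls, against 9.55, 5.41 and 10.5 CPM in the sFlt1 mice. The groups overlapped, and the log2 fold change was 0.57 (SE 0.41). Cxcl13, which draws B cells through Cxcr5, was at 0.208, 0.926 and 0.559 CPM in the controls, against 3.26, 0.415 and 1.17 CPM in the sFlt1 mice. Replicate 1 of the sFlt1 group was 2.78 times the next library, and the log2 fold change of 1.51 (SE 0.87, adjusted p = 0.55 by edgeR) was 0.51 without it.

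Cx3cl1 and Cxcl14 were highest in control replicate 3. Cx3cl1, or fractalkine, a membrane-bound ligand made by neurons and endothelium, was at 34.1, 48.9 and 145 CPM in the controls, against 35.6, 38.1 and 40.1 CPM in the sFlt1 mice. With that control set aside, the remaining 5 libraries lay between 34.1 and 48.9 CPM. The log2 fold change of -1.0 (SE 0.51, adjusted p = 0.51 by edgeR) became -0.13 without it. Cxcl14, a ligand made by epithelia and by some brain neurons, was at 3.35, 2.92 and 27.3 CPM in the controls, against 4.70, 1.75 and 13.4 CPM in the sFlt1 mice. Replicate 3 of both groups was high, and the log2 fold change of -0.76 (SE 1.06, adjusted p = 0.81 by edgeR) became 1.07 without control replicate 3 and -1.81 without sFlt1 replicate 3. Brain neuron markers were highest in control replicate 3 as well, with Gad1, an enzyme of GABA synthesis, at 569 CPM there and 27.4 CPM or less in the other 5. All 8 of these markers had estimates below 0 (median -2.78), and none was at 0 in every library. DESeq2 passed 4 of them, against 2.19% of all genes, and edgeR 0. The part of brain tissue in the levels of Cx3cl1 and Cxcl14 was not tested. Xcl1, the XC ligand of T and NK cells, had 0 to 5 counts per library.

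Of the 4 tested epithelial and mucosal CC ligands, 3 had estimates above 0, with a median of 0.31. Ccl28, a mucosal ligand of Ccr10 and Ccr3, was at 27.0, 23.7 and 17.2 CPM in the controls, against 57.4, 20.0 and 18.4 CPM in the sFlt1 mice. Only sFlt1 replicate 1 lay above the controls, and the log2 fold change of 0.50 (SE 0.47, adjusted p = 0.71 by edgeR) was -0.22 without it. Ccl27a, another Ccr10 ligand known from skin, was at 17.1, 11.3 and 13.0 CPM in the controls, against 10.8, 10.7 and 5.98 CPM in the sFlt1 mice, and was the tested ligand whose groups were separate with sFlt1 mice lower. The log2 fold change was -0.59 (SE 0.34, adjusted p = 0.55 by edgeR), and -0.17 without both libraries with Xist reads. Ccl25, the Ccr9 ligand of thymus and small intestine, was at 9.70, 9.05 and 8.12 CPM in the controls, against 9.34, 14.4 and 5.59 CPM in the sFlt1 mice, which gave a log2 fold change of 0.13 (SE 0.39). Its gene overlaps Elavl1 on the opposite strand, so its counts carry the same doubt. Ccl20, the Ccr6 ligand induced in inflamed epithelia, was at 1.07, 2.28 and 0.537 CPM in the controls, against 1.37, 1.48 and 4.39 CPM in the sFlt1 mice. It was highest in sFlt1 replicate 3, and the log2 fold change of 0.91 (SE 0.72, adjusted p = 0.65 by edgeR) became 0.15 without it.

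The lymphoid homing ligands act on Ccr7 and guide dendritic cells and T cells into lymph nodes. Ccl21a was at 3.94, 3.70 and 2.19 CPM in the controls, against 9.86, 2.01 and 1.61 CPM in the sFlt1 mice. Replicate 1 of the sFlt1 group was 2.5 times the next library while the others lay below every control, and the log2 fold change of 0.45 (SE 0.75, adjusted p = 0.84 by edgeR) was -0.84 without it. Ccl19 had 6 to 11 counts in controls and 13 to 22 counts in sFlt1 mice, but as CPM the groups overlapped, at 0.178 to 0.392 against 0.284 to 0.772. Its estimate was 0.83 (SE 0.59). Ccl21a, Ccl21b and Ccl21d are near-identical copies, as are Ccl27a and Ccl27b, so how their reads were divided is uncertain.

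No single mouse was highest for all ligands. Of the 24 tested ligands, 10 were highest in sFlt1 replicate 1, where 16.9% of all genes were, and 5 in sFlt1 replicate 3, where 27.0% of all genes were. Control replicate 3 was highest for 3, against 20.7% of all genes, and at least 3 times the next library for 0, against 3.72%. Control replicate 2 was highest for 0. In sFlt1 replicate 3, 2 of the tested ligands, Cxcl1 and Cxcl10, were at least 3 times the next library, as were 1.08% of all genes. With the ligands under the filter included, Cxcl1, Cxcl2, Cxcl10, Ccl2 and Ccl7 met that mark. These 5 were picked for this pattern, and their summed level was 0.738 to 1.99 CPM in the other 5 mice and 16.5 CPM in sFlt1 replicate 3, the mouse with the smallest bulb and with Xist reads.

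**Figure D3:**
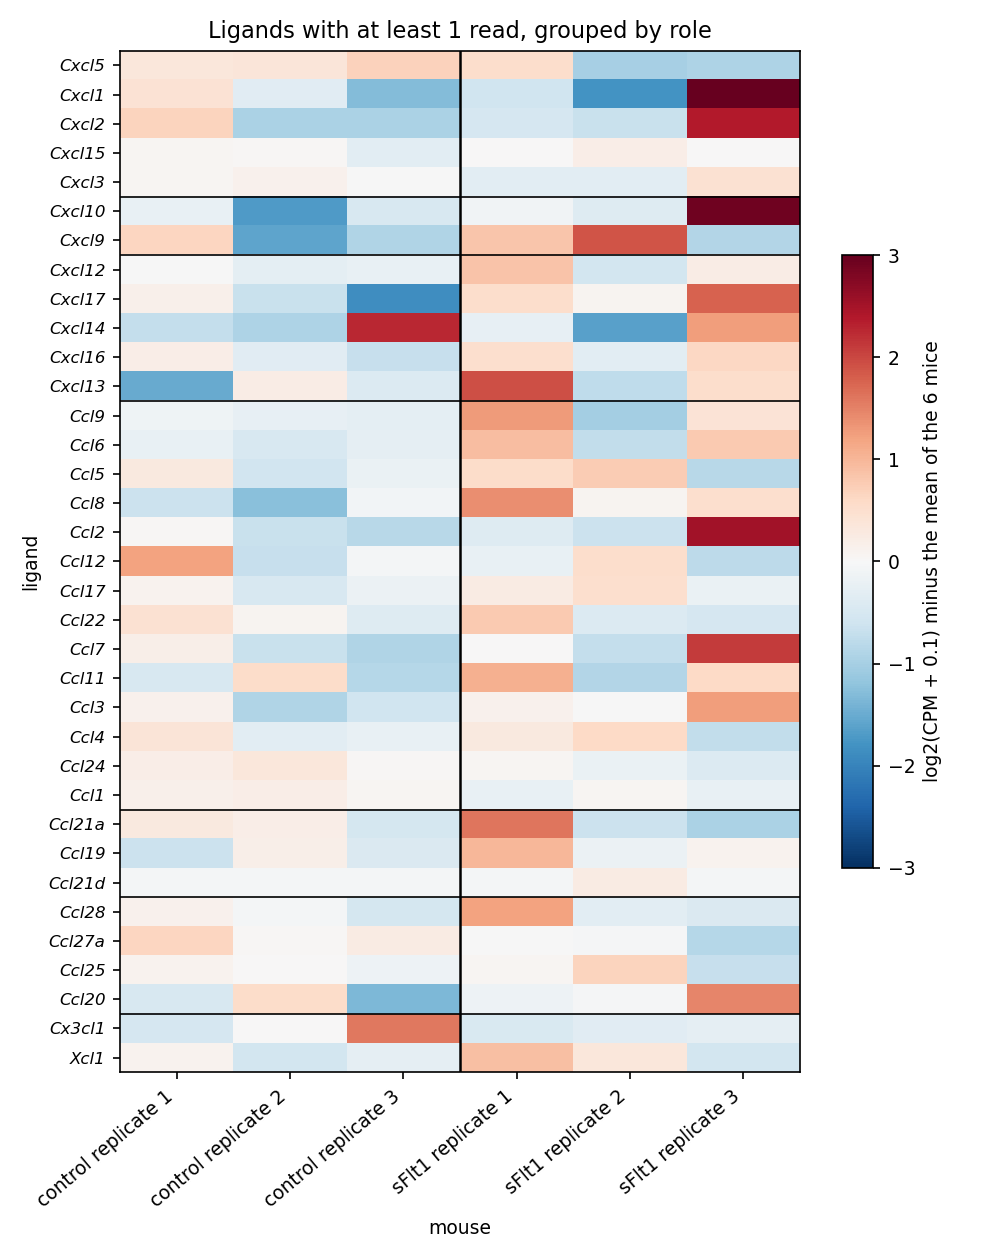
Log2(CPM + 0.1) minus the mean of the 6 mice (colour, saturated at 3) for the 35 ligands with at least 1 read, in rows grouped by role from Cxcr2 ligands at the top to the CX3C and XC ligands at the bottom, with mice in columns. Cxcl1, Cxcl2, Cxcl10, Ccl2 and Ccl7 are darkest in sFlt1 replicate 3, Ccl9, Ccl6, Cxcl13 and Ccl21a are raised in sFlt1 replicate 1, and Cx3cl1 and Cxcl14 in control replicate 3.

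Other markers moved with these patterns in the same libraries. Of 14 inducers and NF-kB feedback genes, 11 were tested, all 11 had higher estimates in sFlt1 mice and 0 passed by edgeR or DESeq2. Nfkbia, the inhibitor induced by NF-kB, was at 29.4, 39.8 and 31.7 CPM in the controls, against 42.5, 28.0 and 126 CPM in the sFlt1 mice, highest in the mouse with high Cxcl1. Its estimate of 0.96 (SE 0.53) was 0.07 without that mouse. The cytokine Il6 was at 0.988 CPM in that mouse and 0.107 CPM or less in the other 5, while Il1b was lowest there, at 0.598 CPM. Nfkb1, the member with the smallest p, had a log2 fold change of 0.53 (SE 0.18, adjusted p = 0.43 by edgeR). Its groups did not overlap, nor did those of Il1a, Tlr2 and Tlr4, each higher in sFlt1 mice. Those are 4 of the 11 tested genes, where 8.76% of all genes did so.

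Leukocyte marker lists differed in whether they were high in the mouse with high Cxcl1. All 9 tested neutrophil markers of 10 had higher estimates, with a median of 1.69, but their summed level was 550 CPM in sFlt1 replicate 1, 96.3 CPM in replicate 2 and 27.1 CPM in replicate 3, against 21.9 to 97.3 CPM in controls. They were thus low in the mouse where the neutrophil attractants Cxcl1 and Cxcl2 were high, and highest where Ccl9 and Ccl6 were. Ccl9 and Ccl6 were also above every control in sFlt1 replicate 3, at 12.1 and 5.72 CPM, where neutrophil markers were low. Macrophage and dendritic markers summed to 101, 83.1 and 132 CPM in sFlt1 replicates 1, 2 and 3 and 50.8 to 99.0 CPM in controls, with 8 of 10 estimates higher. This list was highest in the mouse with high Cxcl1 and Ccl2, where 5 of its 10 members peaked, among them Cd68 at 18.0 CPM. Other members were at their lowest in that mouse, with Aif1 at 1.10 CPM, Fcgr1 at 0.598 CPM and Cd209a at 0 CPM. T and NK cell markers summed to 11.2 CPM in sFlt1 replicate 1 and 3.00 to 4.73 CPM in the other 5 libraries. B and plasma cell markers without Xbp1, which other secretory cells also express, summed to 13.4, 32.2 and 21.4 CPM in the controls, against 46.8, 7.64 and 6.76 CPM in the sFlt1 mice. They were highest in sFlt1 replicate 1, and Cd79a, part of the B cell receptor, was at 5.58 CPM there and 0.0460 CPM in sFlt1 replicate 3. None of these lists had a member that passed by edgeR or DESeq2 or one at 0 in every library, and their part in the ligand levels was not tested.

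Fibroblast and muscle markers were highest in sFlt1 replicate 1. Fibroblast markers summed to 8810 CPM there, 806 and 3391 CPM in the other sFlt1 mice and 779 to 5804 CPM in controls, while skeletal muscle markers summed to 89.7 CPM there and 1.90 to 23.0 CPM elsewhere. Blood endothelial markers ranged from 24 to 56.0 CPM in the sFlt1 mice and 41.2 to 78.8 CPM in controls, and lymphatic endothelial markers from 43.5 to 133 and from 42.2 to 172 CPM, of which Reln, also made by neurons, was 131 CPM in control replicate 3. Horizontal basal cell markers lay between 133 and 265 CPM in the sFlt1 mice and 75.7 and 145 CPM in controls. Sustentacular markers ranged from 11254 to 20690 and from 12254 to 21806 CPM, and microglia markers from 133 to 148 and from 93.2 to 198 CPM (sFlt1 against control).

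**Figure D4:**
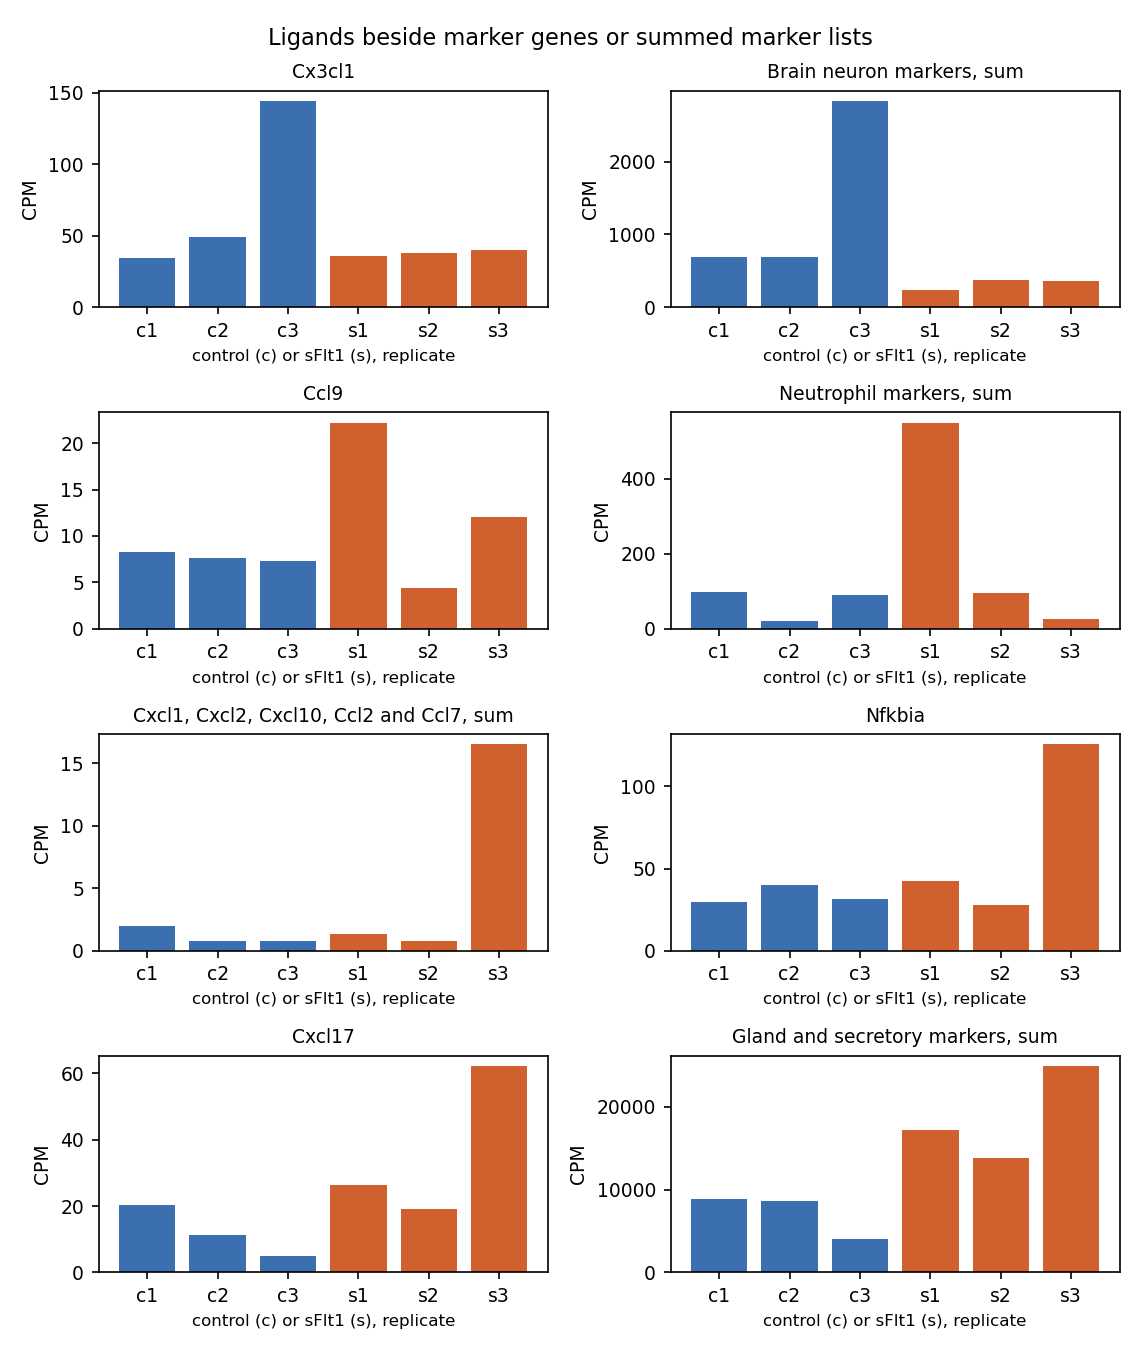
CPM per mouse (bars from 0, control replicates 1 to 3 in blue, sFlt1 replicates 1 to 3 in orange) of ligands on the left and of a marker gene or summed marker lists on the right, paired after their values were seen. Cx3cl1 and brain neuron markers peak in control replicate 3, Ccl9 and neutrophil markers in sFlt1 replicate 1, and the 5 inducible ligands, Nfkbia, Cxcl17 and the sum of gland markers in sFlt1 replicate 3, the last through Bpifa1, without which the sum is higher in sFlt1 replicate 1.

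Chemokine receptors did not pass either. Of 23 receptors, 16 were tested, 12 with estimates above 0 and 4 below, where 51.3% of all genes were above 0. By edgeR and DESeq2 0 passed, against 0.0% and 2.19% of all genes. At an unadjusted p under 0.05 by edgeR there were 0, against 11.1% of all genes in either direction. The median log2 fold change was 0.35, and -0.26 without sFlt1 replicate 1. Cxcr4, the signalling receptor for Cxcl12, was at 17.0, 13.7 and 24.1 CPM in the controls, against 23.7, 22.8 and 34.9 CPM in the sFlt1 mice, which gave a log2 fold change of 0.57 (SE 0.30, adjusted p = 0.51 by edgeR). Ackr3, which scavenges Cxcl12, was at 33.7, 45.3 and 37.5 CPM in the controls, against 29.3, 44.2 and 70.4 CPM in the sFlt1 mice, with 0.31 (SE 0.33). Ccrl2, an atypical receptor, had the smallest p of the receptors, with 1.09 (SE 0.53, adjusted p = 0.49 by edgeR).

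Cxcr2 and Ccr2 were not high in the mouse where Cxcl1 and Ccl2 were, but Cx3cr1 was highest where Cx3cl1 was. Cxcr2, on neutrophils, was at 3.86 CPM in sFlt1 replicate 1 and 1.06 CPM in sFlt1 replicate 3, against 0.606 to 1.48 CPM in controls. Ccr2, on monocytes, was at 0.460 CPM in sFlt1 replicate 3, the lowest of the 6 libraries, and at 2.92 to 6.74 CPM in the others. Cx3cr1, the fractalkine receptor of macrophages and microglia, was at 22.3 CPM in control replicate 3, where Cx3cl1 was also highest, and 2.02 to 9.20 CPM elsewhere. Related genes outside the symbol rule had estimates of -0.20 (SE 0.61) for Pf4 and -0.54 (SE 1.08) for Ppbp, both platelet chemokines, and 0.52 (SE 0.47) for Cklf.

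Some neighbouring ligand genes were highest in the same mouse and others were not. On chromosome 5 between 90907219 and 91053797 (GRCm39), Cxcl5, Cxcl3, Cxcl15, Cxcl1 and Cxcl2 lie together, and Cxcl5 was low in the mouse where Cxcl1 and Cxcl2 were high. On chromosome 11 between 81926397 and 82196516, Ccl2 and Ccl7 were high in sFlt1 replicate 3, Ccl8 in sFlt1 replicate 1 and Ccl12 in control replicate 1. The 5 genes between 83416604 and 83555509 on that chromosome held Ccl9 and Ccl6, highest in sFlt1 replicate 1, beside Ccl5 and Ccl4, highest in sFlt1 replicate 2, and Ccl3, highest in sFlt1 replicate 3.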

How the data were processed

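The authors deposited whole-number read counts for each Ensembl gene without normalization, from 1 library per mouse made with 200 ng of total RNA. Per the submitters' processing notes, the tools were TopHat2 2.2.1, cutadapt 3.5, DESeq2 1.26.0 and HTSeq 2.0.1, and the build was GRCm39. How strand was handled is not stated in the labels. The authors' deposited table holds log2 fold changes and p-values adjusted by them, in which 31 ligands had a value and the smallest was 0.22. Of 55414 entries, 6250 had no values and were left out, and 48 further columns of per-sample values were not used. Columns were matched to mice through the column letters in the sample descriptions.

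All genes were tested with edgeR 4.0.16 under R 4.3.3 (TMM, filterByExpr, quasi-likelihood F-test, no covariate, threshold 0.05). Each SE was taken from the estimate and its F statistic. Alternatives were other scalings and filters, DESeq2 1.42.0, limma 3.58.1 voom, the replicate number as a block, and mice left out. Leaving out control replicate 3 and sFlt1 replicate 3 together was added after seeing the data. The fits were tested on simulated data. Exon lengths came from GENCODE M21 (GRCm38) for all 38 ligands.

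Members and lists were chosen with earlier results of these data known. By rule, values per mouse are given for ligands with a mean of 1 CPM or more or an unadjusted p under 0.05, and of each further list the member with the smallest p and the most abundant were to be named. Marker lists are mostly given as sums, and other genes named were chosen after their values were seen. No libraries looked like duplicates, since even the closest pair had a chi-square per degree of freedom of 76.5. With 3 mice a group, p-values set each group difference against the variation between these mice, estimated partly from all genes.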

Additional observations from a re-analysis of the deposited data

How the results depend on the processing

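The count of ligands that passed was 0 under every alternative run. All genes that passed numbered 440 by DESeq2, 0 to 1 with a mouse left out, and 0 under the other alternatives. The median log2 fold change of the ligands ran from 0.34 to 0.74 with a mouse left out and that of the receptors from -0.26 to 0.56, turning without sFlt1 replicate 1. Deviations from the group mean had correlations of 0.026, 0.25 and 0.36 in same-numbered mice and of -0.42 to 0.29 in differently numbered pairs. These values do not settle whether mice were paired by number. With the replicate block 0 ligands passed, the ligand median was 0.39 and Ccl21a turned to -0.012. Ccl21a was at -0.072 by limma voom. Without both libraries with Xist reads, Ccl12 turned to 0.66, Ccl22 to 0.52, Ackr3 to -0.17 and Nfkbia to -0.015. In that fit Cxcl1 and Ccl11 fell under the filter on low counts. Without control replicate 3 and sFlt1 replicate 3, Cxcl14 turned to 0.032, Ccl20 to -0.23, Cxcl1 to -1.66 and Ackr3 to -0.10. The cause of these turns was not tested beyond the mice left out. With 1 mouse left out, estimates that turned ran from -0.22 to 0.77 for Ccl28, -1.81 to 1.07 for Cxcl14, -0.84 to 0.85 for Ccl21a, -0.26 to 0.41 for Ccl25, -1.06 to 0.39 for Ccl12, -1.22 to 3.32 for Cxcl1, -0.67 to 0.28 for Ccl22 and -0.080 to 0.58 for Ackr3. Other scalings turned no named estimate. At a few counts per library, differences of the rarest ligands were not detectable at this depth.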
